A study of Mus musculus with 32 samples.

Results

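Male mice bred as withdrawal seizure-prone (WSP) were compared with their seizure-resistant counterparts (WSR) in the absence of ethanol, in prefrontal cortex. The members are the 8 arrays whose labels read male and Air, of 32 arrays in the series: 4 WSP arrays and 4 WSR arrays. Both lines were bred from HS/Ibg mice, a heterogeneous stock, and breeding in each direction was done in 2 replicate lines, so that the arrays divide into WSP-1, WSP-2, WSR-1 and WSR-2 with 2 pools each. Each pool held RNA of 2 animals from selected generation 26. The mice sat for 72 h in chambers with air alone, received pyrazole (68.1 mg/kg), an inhibitor of alcohol dehydrogenase that the ethanol-exposed mice of the study also received, and were sampled at the time point labelled 0 h of withdrawal. The controls were therefore pyrazole-treated and not naive mice, and the labels used here give no age.

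WSP and WSR mice were bred for convulsions of high and of low severity when ethanol exposure ends. Such convulsions are commonly linked to a balance between inhibitory transmission through GABA receptors and excitatory transmission through glutamate receptors, and the prefrontal cortex is among the regions in which that balance shapes control of drinking and arousal. A difference between selected lines, in mice kept without ethanol, can stem from alleles that selection favoured or from alleles fixed by chance in a small colony. This is why such studies keep replicate lines, and a difference found in both replicates has a different standing from one found in a single pair of lines. The series' design text treats the 4 arrays of a line as replicates, and the replicate lines are also taken apart here.

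The RNA was copied into 33P-labelled cDNA and hybridised to a cDNA array with 5163 probes beside 192 genomic DNA control spots. Background readings lay between 12.8 and 21.9 on the 8 arrays, and median signals between 14 and 21.8. The signal was taken as not yet background-subtracted, since array medians sit close to the background reading, and every count of arrays above background and every bound written as at least a fold rests on that. Between 42.3% and 65.2% of probes lay above the background reading, and 12.6% to 19% above 2 times that reading, so a large part of the array is near the floor. Of 5163 probes, 3872 passed a filter at the 25th percentile of mean log2 signal and were tested, among them 821 whose title names a gene. Arrays correlated with each other at 0.889 to 0.942, with a mean of 0.921 within WSP, 0.928 within WSR and 0.922 between the lines. Arrays of different lines were thus about as alike as arrays of the same line. After the location correction described below, and not before it, the WSP-2 pools stood apart from the other arrays on the first principal component, so counts are also given without them. Few markers of brain cell types are on the array, and none of those read here marks cortex in particular. Glul, the glutamine synthetase of astrocytes, was above background on all 8 arrays. Syn1, which encodes the synaptic vesicle protein synapsin I, was above background on 3 WSP and 2 WSR arrays.

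No probe separated the lines at an adjusted p of 0.05 in limma (0 of 3872, or 0%, smallest adjusted p = 0.437), with 258 probes (6.66%) at an unadjusted p under 0.05, 140 higher (3.62%) and 118 lower (3.05%) in WSP. Without both WSP-2 arrays 148 probes, and without both WSP-1 arrays 441, lay under that unadjusted p, with 0 past the adjusted threshold each time. The 4 WSP arrays and the 4 WSR arrays did not overlap at 135 probes, 3.49% of those tested, 63 with WSP higher (1.63%) and 72 with WSP lower (1.86%). Of the 821 tested probes with a gene title, 27 (3.29%) were among them, 15 higher and 12 lower. The others, 48 higher and 60 lower, are expressed sequence tags or have no gene title. A pair of further settings, no background correction and a restriction to probes above background on all 8 arrays, called 1 probe each, and it was the same probe, unknown2a619, which has no title. On the WSP arrays it measured 4.75, 4.57, 4.59 and 4.94 in normalised log2 signal, and on the WSR arrays 5.81, 5.65, 5.96 and 6.04. Every WSR array lay above every WSP array with little spread inside either line. The difference was -1.16 ± 0.15 (SE, log2) among probes above background on all 8 arrays (limma adjusted p = 0.0228), and the same size with adjusted p = 0.437 over all 3872 probes. After the location correction described below it was -0.88 ± 0.23 over all 3872 probes (limma adjusted p = 0.414), with the groups still apart.

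The place of a spot on the filter moved with the line difference, and this touches every value below. Line differences of horizontally neighbouring spots correlated at 0.418 over 3144 pairs, a description over spots that share the same 8 filters. The 16 spotting grids held 13.1% of the variance of the line difference, with grid medians from -0.21 to 0.35. The 3 grids with the highest medians held 781 tested probes and 31 of the 63 probes that were higher on all WSP arrays. For this reason a location-corrected value is given beside the measured one for the genes described at length and for the lists that it moves: from each array's deviation at a spot, the median deviation of the spots within 3 columns and rows of it in the same grid was taken off. After this step the grids held 0.48% of the variance, neighbouring spots correlated at 0.20, and still 0 probes passed in limma (smallest adjusted p = 0.352, 292 probes or 7.54% at unadjusted p under 0.05). After the correction 141 probes did not overlap, 3.64% of those tested, of which 20 of 66 higher (1.7% of tested probes) and 28 of 75 lower probes (1.94%) were among those found before it.

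**Figure D1:**
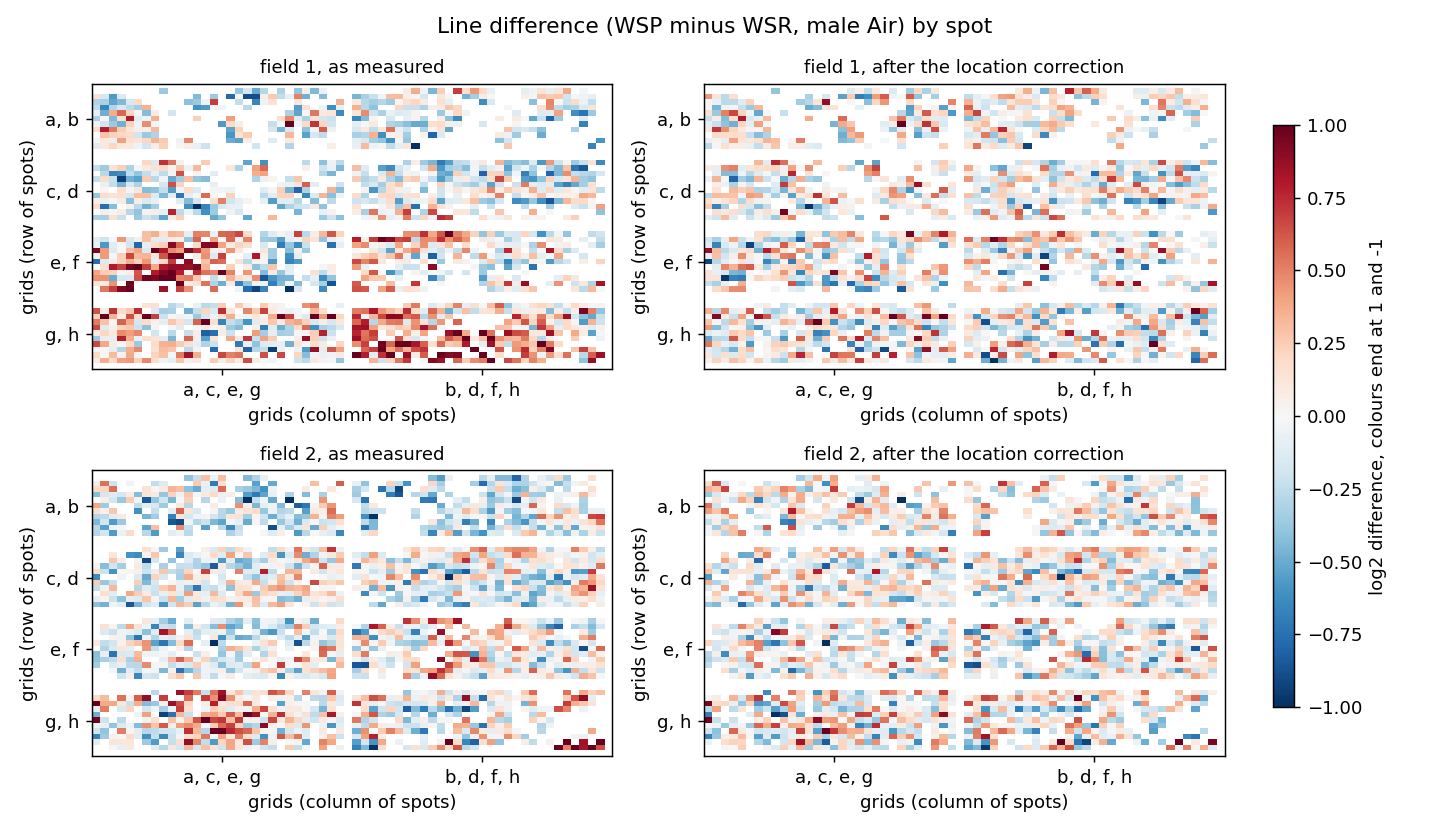
Line difference (WSP minus WSR, log2) of each tested probe at its spot on the array, for the 2 fields of 8 grids each (labelled a to h), as measured on the left and after the location correction on the right. Untested spots are white; grid h of field 1, with a median of 0.35 as measured, has a median of -0.02 after the correction.

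Among probes with a gene title, 15 were higher on all 4 WSP arrays, none past the threshold. Pkp3, plakophilin 3, which anchors intermediate filaments at desmosomes, measured 4.40 and 5.02 in WSP-1, 5.53 and 5.10 in WSP-2, 4.02 and 3.63 in WSR-1 and 3.31 and 2.49 in WSR-2. The 4 WSP values all exceeded the 4 WSR values, and the gap was widest between WSP-2 and WSR-2. The difference was 1.65 ± 0.35 (SE, log2, n = 4 and 4, limma adjusted p = 0.471) and 1.29 ± 0.28 after the location correction (adjusted p = 0.352). Slc27a2, a very long chain acyl-CoA synthetase and fatty acid transporter, measured 3.96 and 4.45 in WSP-1, 4.69 and 5.35 in WSP-2, 3.45 and 3.93 in WSR-1 and 2.49 and 3.35 in WSR-2. The lowest WSP pool exceeded the highest WSR pool by very little, and the difference of 1.31 ± 0.36 was nearly the same after the correction, at 1.25 ± 0.31 (limma adjusted p = 0.549 and 0.352). Pex2, titled by its older name as a peroxisomal membrane protein and needed for import into peroxisomes, measured 4.02 and 3.96 in WSP-1, 4.48 and 4.05 in WSP-2, 2.99 and 3.77 in WSR-1 and 2.99 and 2.24 in WSR-2. It differed by 1.13 ± 0.31, and by 0.97 ± 0.27 after the correction, with the groups apart both times (adjusted p = 0.549 and 0.487).

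Atp2a1, the sarcoplasmic calcium pump of fast muscle, measured 5.02 and 4.32 in WSP-1, 5.21 and 5.72 in WSP-2, 3.99 and 4.26 in WSR-1 and 3.87 and 3.33 in WSR-2. The closest pools, 4.32 and 4.26, nearly touched, and the difference was 1.20 ± 0.32, or 0.91 ± 0.27 after the correction (limma adjusted p = 0.549 and 0.499). Gnao1, the alpha o subunit of the G proteins that couple many inhibitory receptors in brain, measured 3.98 and 4.88 in WSP-1, 4.26 and 3.78 in WSP-2, 3.27 and 3.43 in WSR-1 and 2.96 and 2.39 in WSR-2. The spots around it were also high on WSP arrays, by 0.84: the difference of 1.22 ± 0.31 became 0.37 ± 0.29 after the correction, and the groups then overlapped. Hdac6, a cytoplasmic deacetylase of tubulin, went likewise from 1.16 ± 0.36 to 0.61 ± 0.31, and Fnta, a subunit of protein farnesyltransferase, from 0.74 ± 0.26 to 0.39 ± 0.27. Hes6, a helix-loop-helix factor that favours neuronal differentiation, differed by 0.99 ± 0.28 and by 0.86 ± 0.30 after the correction.

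For Smad2, which carries signals of the TGF-beta family, no WSR array was above background. As measured, its level was at least 1.42-fold higher in WSP (log2 means 3.66 and 2.77, limma adjusted p = 0.58). Its measured difference of 0.89 became 0.52 after the correction, and the groups then overlapped. Mybph, a muscle myosin-binding protein, and Ndufa2, a subunit of respiratory complex I, were above background on 2 WSP arrays and no WSR array, at least 1.04-fold higher each. After the correction their differences went from 0.57 to 0.26 and from 0.72 to 0.29, with overlap. Of the 12 higher genes, 4 still had no overlap after the correction: Pkp3, Slc27a2, Pex2 and Atp2a1. The 12 measured differences ran from 0.57 to 1.65, with adjusted p from 0.471 to 0.723.

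Genes lower on all 4 WSP arrays included an interneuron peptide, a proteasome subunit and a class II antigen-presenting molecule, again none past the threshold. Sst, somatostatin, the peptide of a main class of inhibitory cortical interneurons, measured 3.77 and 4.27 in WSP-1, 3.83 and 3.41 in WSP-2, 4.38 and 4.33 in WSR-1 and 4.64 and 4.43 in WSR-2. The WSR pools were tightly grouped and the nearest WSP pool lay just under them. The difference was -0.62 ± 0.23 (SE, log2, limma adjusted p = 0.695) and -0.46 ± 0.24 after the location correction, with the groups then overlapping. In pooled tissue, fewer cells of a type and less RNA per cell cannot be told apart. Psmd4, the ubiquitin receptor of the 26S proteasome, measured 5.04 and 5.0 in WSP-1, 5.0 and 3.88 in WSP-2, 5.14 and 5.06 in WSR-1 and 6.43 and 5.45 in WSR-2. The other WSP pools and both WSR-1 pools lay close together, and the difference of -0.79 ± 0.37 (adjusted p = 0.739) came mainly from WSP-2 pool 2 and WSR-2 pool 1. After the correction the difference was -0.92 ± 0.28. Odf2, a centrosome and sperm tail protein, differed by -0.84 ± 0.33 with WSP-2 pool 1 far below the rest.

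Several of the lower genes sat at the floor. Vnn1, a pantetheinase, measured 1.84 and 2.10 in WSP-1, 2.58 and 2.68 in WSP-2, 3.61 and 3.26 in WSR-1 and 3.09 and 2.97 in WSR-2. Its difference was -0.94 ± 0.26, and -0.80 ± 0.22 after the correction. No WSP array and 2 WSR arrays were above background, and the level was at least 1.11-fold lower in WSP (log2 means 2.30 and 3.23, adjusted p = 0.549). The same bound was 1.13 for Krtap6-1, a hair keratin-associated protein, 1.18 for Rb1, the retinoblastoma cell cycle regulator, and 1.02 for Csk, the kinase that restrains Src family kinases. H2-Aa, a chain of a class II histocompatibility molecule, differed by -0.36 ± 0.25, Cradd, a death domain adaptor of caspase 2, by -0.34 ± 0.21, and Rps6ka2, a ribosomal S6 kinase, was above background on no WSP array and 1 WSR array. After the correction H2-Aa, Cradd and Rps6ka2 measured -0.24, -0.19 and -0.18, with overlap. Of the 12 lower genes, 3 still had no overlap after the correction: Vnn1, Zmynd10 and Psmd4.

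**Figure D2:**
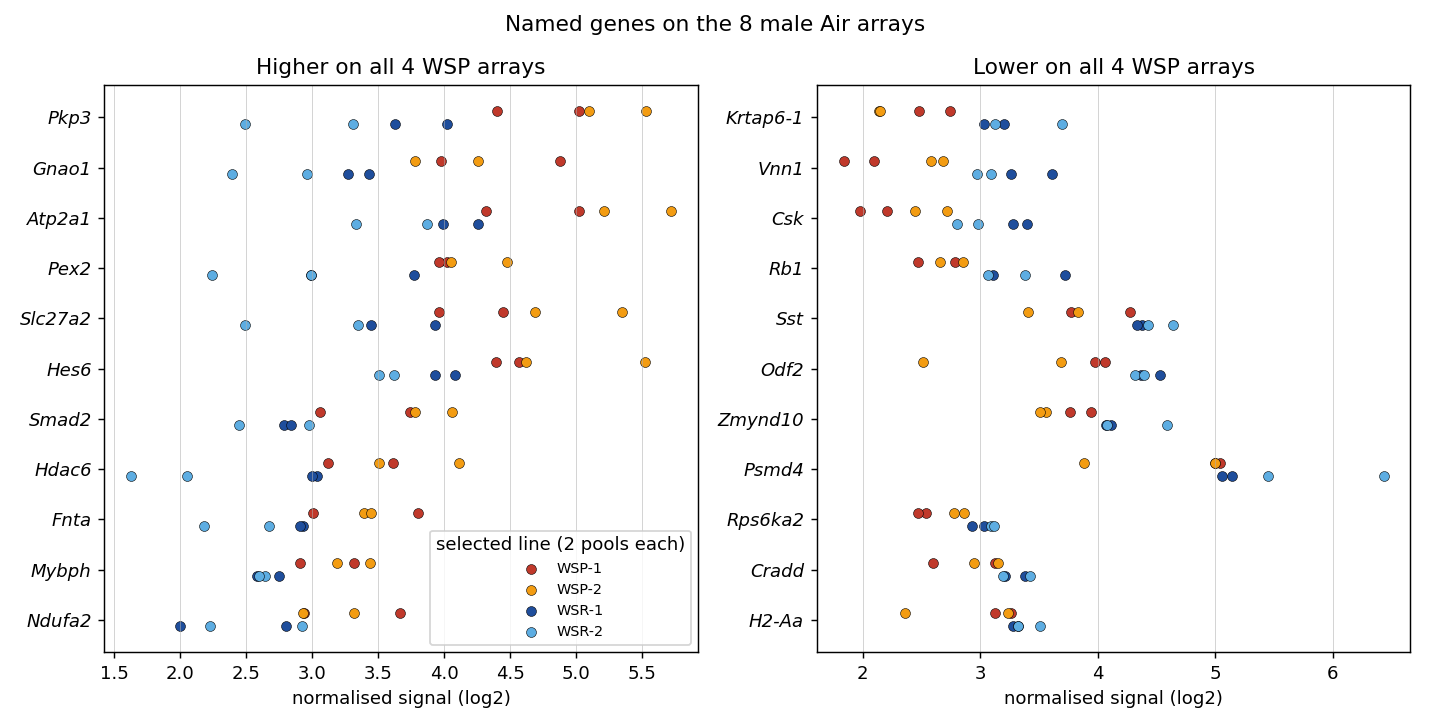
Normalised log2 signal of the named genes on each of the 8 male Air arrays, with 1 point per pool coloured by selected line; the left panel holds genes higher and the right panel genes lower on all WSP arrays. In Pkp3, Slc27a2 and Hdac6 the WSR-2 points lie farthest left, and in Vnn1 and Csk the WSP-1 points do.

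The replicate lines were then compared separately, to see whether a difference between WSP and WSR held in both. WSP-1 and WSR-1 differed at 136 probes at an unadjusted p under 0.05 (3.51%) and WSP-2 and WSR-2 at 393 (10.1%), with 0 past the adjusted threshold in limma in both (0%), 2 pools against 2 with the spread of all 4 lines pooled. Across the 3872 probes, the line difference of replicate 1 and that of replicate 2 correlated at 0.0529 (Spearman 0.0386), and after the location correction at -0.0171, and 51.3% of probes had the same sign before it. The replicate lines of one direction were compared in the same fit. WSP-1 against WSP-2 gave 274 probes (7.08%) at unadjusted p under 0.05 and WSR-1 against WSR-2 gave 109 (2.82%), again with 0 past the threshold. The size of the difference between the replicates was tested as an interaction, and 0 of 3872 probes passed (smallest adjusted p = 0.692, 238 at unadjusted p under 0.05).

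With the location correction, 106 probes (2.74%) differed between WSP-2 and WSR-2 in limma, 48 higher and 58 lower in WSP-2, and 0 differed between WSP-1 and WSR-1 (smallest adjusted p = 0.998). At unadjusted p under 0.05 this corrected fit held 582 probes for WSP-2 against WSR-2. It held 470 for WSP-1 against WSP-2, lines bred in the same direction, with 0 past the threshold (smallest limma adjusted p = 0.0671). For WSR-1 against WSR-2 it held 202, also with 0 past the threshold. Without background correction 36 probes passed for replicate 2, and in the main processing 0. The count of 106 rested on single arrays and on the scaling: it was 0 without WSP-2 pool 2, 0 without WSR-2 pool 2, 6 without WSR-2 pool 1 and 52 without WSP-2 pool 1, and 0 when median scaling or cyclic loess replaced quantile normalisation. Leaving out an array of replicate 1, which changes the estimate of the spread, the scaling, the location correction and the filter, gave 16 to 100. The sizes and signs below are therefore those of this 1 fit. The 106 differences ran from 1.21 to 2.14 in size (log2, median 1.47). The probes lay in all 16 grids, 51 in field 1 and 55 in field 2, and of 4 signal classes of 968 probes each, the brightest held 53, the next 47, and the others 4 and 2. Only 14 have a gene title. Higher in WSP-2 were Slc27a2 (2.01 ± 0.36, adjusted p = 0.0241), Pkp3 (1.85 ± 0.35), Mbd2, which binds methylated DNA (1.70 ± 0.33), Pex2 (1.63 ± 0.31), Atp2a1 (1.51 ± 0.32), the pentose phosphate enzyme transketolase Tkt (1.52 ± 0.36) and the lipoprotein component Apoa4 (1.34 ± 0.35). Gata4, a transcription factor of heart and gut, P2rx1, an ATP-gated channel, and Scamp4, a secretory carrier membrane protein, were also higher, by 1.41, 1.27 and 1.40. Lower were Psmd4 (-1.54 ± 0.34), Tmem115, a Golgi membrane protein (-1.52 ± 0.34), Cct2, a subunit of the cytosolic chaperonin (-1.41 ± 0.35), and Dag1, dystroglycan (-1.22 ± 0.31).

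These 106 probes were then read in other arrays. The replicate 1 Air arrays entered the call through the scaling, the location correction, the filter and the spread. The ethanol and female arrays had no part in it, and background readings of the female arrays differed by line. Between WSP-1 and WSR-1 in Air, 49 of 106 (46.2%) had the same sign as in replicate 2, against 48.0% of all probes, with a median of -0.02 in the direction of the call. Between WSP-1 and WSR-1 after ethanol vapor, 104 of 106 (98.1%) had the same sign, against 60.5% of all probes, with a median of 1.04. Between WSP-2 and WSR-2 after ethanol vapor it was 92 of 106 (86.8%, against 58.1% of all probes) with a median of 0.54, and in female Air 58 of 106 (54.7%, against 52.8%). The pair that did not share the pattern among males was therefore WSP-1 against WSR-1 in Air. The labels used here give no batch, and whether these arrays hold what their labels say could not be checked from the values, so the replicate 1 values and those of the whole lines are given on the labels alone. Tkt gives an example: its difference after correction was 1.52 in replicate 2 and 0.14 in replicate 1 in Air, and 1.48 in replicate 1 and 0.22 in replicate 2 with ethanol. Tmem115 measured -1.52 in replicate 2 and -0.31 in replicate 1 in Air, and -1.16 in replicate 1 and -0.69 in replicate 2 with ethanol. Not every gene of the call followed. Cct2, at -1.41 in replicate 2 in Air, measured 0.35 in replicate 1 and 0.18 in replicate 2 with ethanol. P2rx1, at 1.27 in replicate 2 in Air, measured 0.14 and -0.12.

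**Figure D3:**
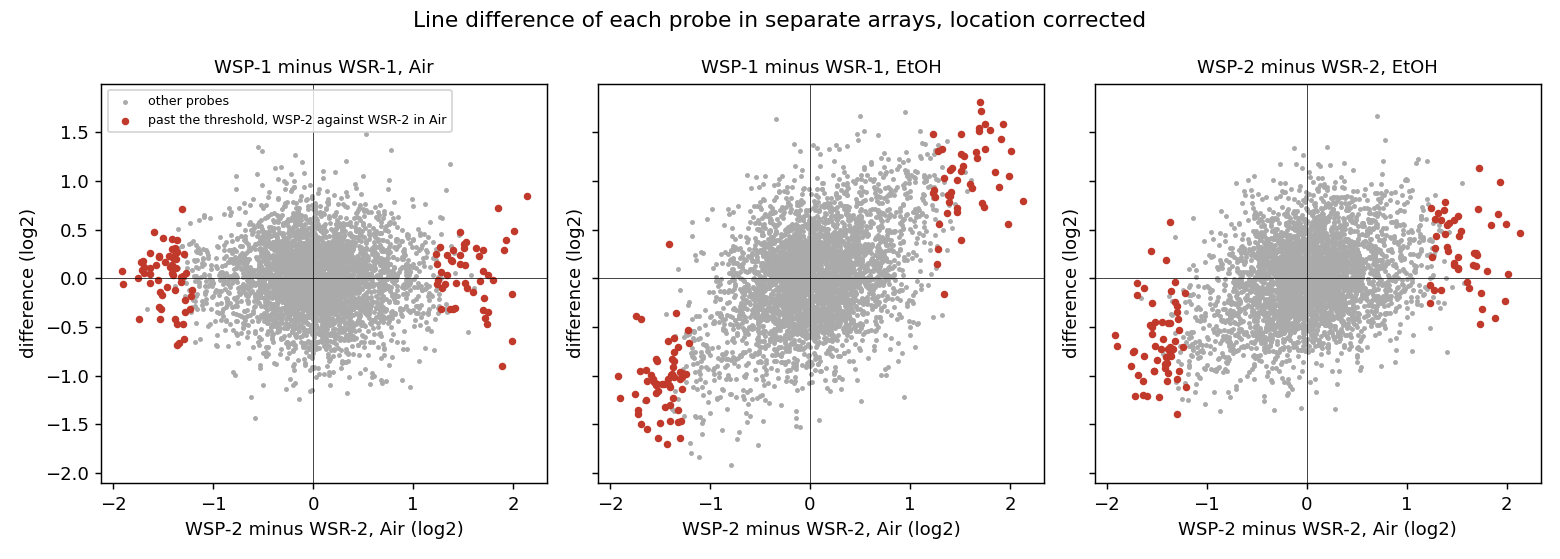
Line difference (log2, location corrected) of each tested probe between WSP-2 and WSR-2 in male Air on the horizontal axis, against the same difference in 3 other sets of male arrays on the vertical axis. The 106 probes past the threshold on the horizontal axis are red; 49 share its sign in replicate 1 in Air, 104 in replicate 1 with EtOH and 92 in replicate 2 with EtOH.

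The same structure shows in the arrays as wholes. The first principal component of the 8 location-corrected arrays held 28% of their variance. The WSP-2 pools scored 15.9 and 24.9 on it, the WSR-2 pools -15.7 and -7.6, the WSP-1 pools -4.7 and -3.8 and the WSR-1 pools -5.1 and -3.9. The WSP-1 arrays thus sat beside the WSR-1 arrays, between those of replicate 2. Applied to the male ethanol arrays, which had no part in finding the component, its weights gave 8.8, 3.7, 6.1 and 8.2 for the 4 WSP arrays and -10.6, -10.8, -6.5 and 1.1 for the 4 WSR arrays, with no overlap between the lines. The female Air arrays scored between -2.5 and 3.6, with the lines overlapping. The first component of the male ethanol arrays on their own had weights that correlated at 0.601 with those of the Air arrays across probes, and that of the female Air arrays at 0.0213. Without the location correction the WSP-2 pools did not stand apart: they scored -1.9 and 21.2, the WSP-1 pools 10.3 and -6.4, the WSR-1 pools -2.9 and -1.4 and the WSR-2 pools -28.9 and 10. The share of probes above background was 49.3% and 42.3% in WSP-2, 59.6% and 65.2% in WSP-1, 63.5% and 45.1% in WSR-1 and 43.3% and 49.3% in WSR-2, and its part in the pattern was not tested.

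**Figure D4:**
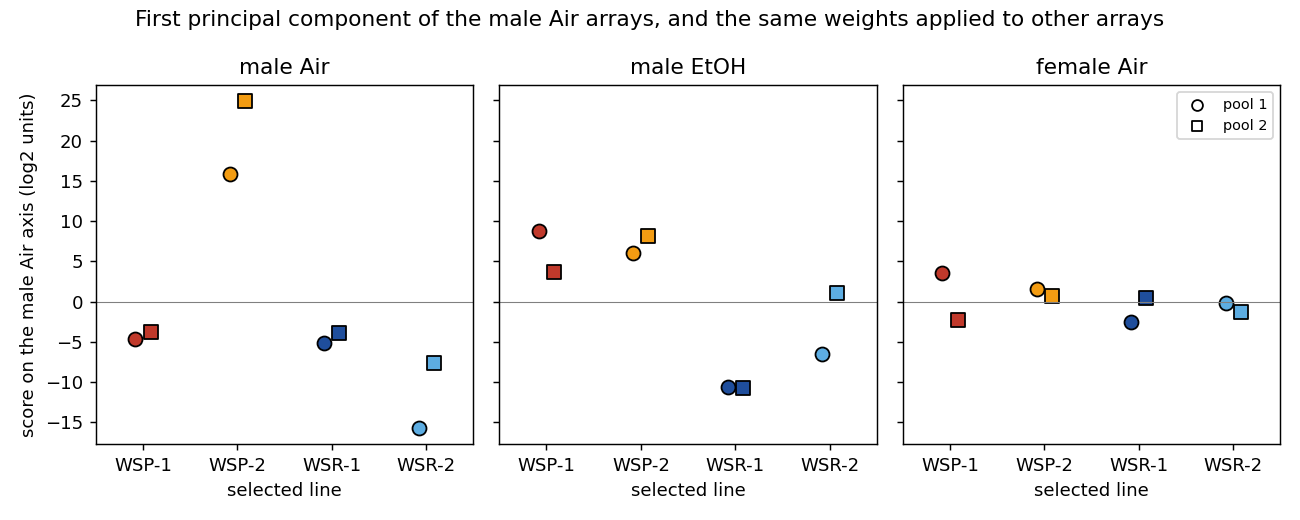
Score of each array on the first principal component of the male Air arrays (location corrected, log2 units), in male Air, male EtOH and female Air, by selected line and pool. In male Air the WSP-2 pools are at 15.9 and 24.9 while both WSP-1 pools lie below 0, and in male EtOH all 4 WSP pools lie above all 4 WSR pools.

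Other mice of the same lines gave a further comparison with no array in common. In male mice after ethanol vapor, 0 of 3872 probes passed between WSP and WSR in limma (0%), with 412 (10.6%) at unadjusted p under 0.05, and 29 (0.749%) passed with the location correction. The line differences in Air and in EtOH correlated at 0.316 across 3872 probes (Spearman 0.261), and at 0.419 after the correction (Spearman 0.328), over probes that are not independent. In the 4 signal classes, from the dimmest to the brightest, the corrected correlation was 0.0534, 0.204, 0.63 and 0.527, and Spearman's was 0.0573, 0.187, 0.601 and 0.347. The share of probes with the same sign was 51.9%, 54.2%, 70.1% and 56.9%, highest in the class below the brightest. Of the 135 probes without overlap in Air, 94 (69.6%) had the same sign in EtOH, against 56.6% of all probes. In female Air it was 58 of 135 (43.0%, against 49.2% of all probes). Background readings of the female arrays differed by line, and the part of this in the female values was not tested. No probe differed between Air and EtOH in its male line difference by the interaction test in limma (0 of 3872, 158 at unadjusted p under 0.05), and none between males and females in Air (0 of 3872, 363 at unadjusted p under 0.05).

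Split by replicate line and corrected for location, the Air difference of replicate 2 correlated with the EtOH difference of replicate 1 at 0.497 and of replicate 2 at 0.342, and the Air difference of replicate 1 with these at -0.0628 and 0.0108. Of the 12 named genes higher in WSP in Air, 11 were higher in EtOH as measured and 12 after the location correction, and of the 12 lower genes, 8 and 9 were lower. In females 4 of the 12 higher and 7 of the 12 lower genes kept their sign. Of all tested probes, 50.7% lay above 0 in EtOH as measured, 51.3% in EtOH after the correction and 58.2% in female Air. The shares below 0 were 49.3%, 48.7% and 41.8%. In EtOH Slc27a2 differed by 0.70 ± 0.36 with WSP arrays from 4.31 to 4.90 and WSR arrays from 2.89 to 4.84, and Pkp3 by 0.62 ± 0.30 with WSP from 4.07 to 5.31 and WSR from 3.84 to 4.37. Both pairs of groups overlapped. Sst differed by -0.52 ± 0.32 in male EtOH and by 0.11 ± 0.47 in female Air. Krtap6-1 and Csk, lower in Air, measured 0.36 ± 0.34 and 0.40 ± 0.29 in EtOH.

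Averaged over Air and EtOH, with all 16 male arrays and the location correction, 142 probes (3.67%) differed between WSP and WSR in limma, 47 higher (1.21%) and 95 lower (2.45%) in WSP, and 0 without the correction (smallest adjusted p = 0.0758). This fit was added after the data were seen. It left 3 probes without WSP-2 pool 2 in Air, 6 without WSR-1 pool 1 in EtOH, 8 without WSP-2 pool 1 in Air, 19 without WSR-2 pool 1 in Air and 0 without all arrays of replicate 2, and 240 without WSP-1 pool 1 in Air. Of the 142, 17 have a gene title and 24 did not overlap in Air as measured. Higher in WSP over the 16 arrays were Pkp3 by 1.05 (limma adjusted p = 0.0193), Slc27a2 by 0.96, Tkt by 0.88, Apoa4 by 0.80, Dll3, a Notch ligand, by 0.76, and Cox8a, a subunit of cytochrome c oxidase, by 0.66. Lower were Tmem115 by -0.91, Psmd4 by -0.84, the growth factor Tgfb2 by -0.88 and the chemokine Cx3cl1, through which neurons signal to microglia, by -0.76. In Air alone Tgfb2 measured -0.28 ± 0.22 as measured and -0.88 after the location correction, and Cx3cl1 -0.16 ± 0.28 and -0.60.

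The named genes, already chosen by their values, were searched for neighbours in the genome, and only the closest pair is described here. The next closest, Gnao1 and Cx3cl1, have 19 protein-coding genes between them. Whether the values of the closest pair share a cause was not tested. Tmem115 and Zmynd10, printed on the array under their older names PL6 and Blu, lie on chromosome 9 of the RefSeq mouse annotation with 2 protein-coding genes, Cyb561d2 and Nprl2, between them. Zmynd10, a protein of motile cilia, measured 3.76 and 3.94 in WSP-1, 3.56 and 3.51 in WSP-2, 4.11 and 4.07 in WSR-1 and 4.59 and 4.08 in WSR-2. Tmem115 measured 5.15 and 5.02 in WSP-1, 4.75 and 3.46 in WSP-2, 5.13 and 5.08 in WSR-1 and 6.19 and 5.05 in WSR-2. Zmynd10 was lower on every WSP array, by -0.52 ± 0.22 (limma adjusted p = 0.727), and by -0.24 ± 0.21 after the location correction (adjusted p = 0.811), while Tmem115 overlapped as measured (-0.76 ± 0.40, adjusted p = 0.75) and not after the correction (-0.92 ± 0.29, adjusted p = 0.526). In EtOH the differences were -0.62 ± 0.32 and -0.93 ± 0.30, and in female Air -0.75 ± 0.63 and 0.08 ± 0.45.

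The gene lists held 0 probes past the threshold in limma, as did the table as a whole, and are described by their counts and medians beside the median of all tested probes, -0.01. Among interferon-response and antigen-presenting genes, 11 of 12 tested probes measured lower in WSP (median -0.27, against 51.9% of all tested probes below 0). After the location correction 2 of 12 lay above 0 (against 50.2% of all tested probes), with a median of -0.12, and in male EtOH the measured median was 0.00. Its members with the smallest p were the immunoproteasome subunits Psmb9 (-0.63 ± 0.31) and Psmb8 (-0.56 ± 0.31) and the class II chains H2-Eb1 (-0.42 ± 0.28) and H2-Aa, and of these only H2-Aa did not overlap. Psmb9 was above background on no WSP array and 2 WSR arrays. In male EtOH Psmb9 and Psmb8 measured 0.66 and 0.52, the opposite sign, and H2-Aa -0.71. Among heat shock proteins and chaperones 6 of 7 measured lower (median -0.22, and -0.15 after the correction), while in male EtOH the median was 0.23. The smallest p belonged to the chaperonin subunit Tcp1 (0.47 ± 0.25), the mitochondrial co-chaperone Grpel2 (-0.33 ± 0.21) and Cct2 (-0.60 ± 0.40).

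Genes of inhibitory and excitatory transmission showed no shared direction. Beside Sst, the GABA-B receptor subunit Gabbr1 differed by 0.05 ± 0.27 and Slc32a1, the vesicular transporter that loads GABA, by -0.33 ± 0.39, or by 0.17 and -0.07 after the location correction. Of 4 tested glutamate signalling genes 2 measured higher and 2 lower: Grin1, the obligatory NMDA receptor subunit, by 0.39 ± 0.33, the scaffold Dlg3 by 0.24 ± 0.25, the scaffold Dlg4 by -0.25 ± 0.21 and Homer3 by -0.45 ± 0.34. After the location correction these were 0.10, 0.51, -0.27 and -0.14. In the synaptic vesicle and endocytosis list 7 of 11 measured lower (median -0.11), and after the correction 7 of 11 lay above 0 (median 0.02), so no direction held. Vamp2, the vesicle SNARE of fast release, measured -0.67 ± 0.30, and -0.37 after the correction, and was above background on 1 WSP and 3 WSR arrays. The immediate early genes were split 2 and 2, from -0.17 for Fosl2 to 0.38 for Ier3, and after the correction all 4 lay above 0, with a median of 0.23. Of 21 tested ion channels, pumps and solute carriers 13 measured higher (median 0.08), with Slc27a2 and Atp2a1 the 2 without overlap. The others lay between -0.52 and 0.53, among them the organic cation transporter Slc22a2 at 0.53 ± 0.30 and a probe titled potassium channel K8 at -0.52 ± 0.30. Respiratory chain genes had a median of 0.00, with Ndufa2 at 0.72 ± 0.28 and Cox8a at 0.49 ± 0.25 the highest of 6; after the correction the median was 0.18 with 5 of 6 above 0, Ndufa2 at 0.29 and Cox8a at 0.46. The medians of the remaining lists were, for ribosomal protein genes, -0.01 over 5 (corrected -0.05), for neurotransmitter receptors 0.20 over 2 (0.23) and for cytochrome P450 genes 0.26 over 3 (0.38).

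A pair of further groups was chosen after values had been seen and is given as a description. All 4 tested G protein subunits measured higher in WSP: Gnao1, Gnb2 (0.97 ± 0.31), Gna13 (0.23 ± 0.22) and Gna11 (0.22 ± 0.20). After the location correction the median went from 0.60 to 0.21 and 3 of 4 stayed above 0, with Gna13 at -0.24. Of 14 tested chromatin modifiers the median was 0.03, and Hdac6 and Mbd2 (1.13 ± 0.35) stood far above the others, which ran from -0.34 to 0.42. Mbd2 measured 5.50 and 4.28 in WSP-1, 5.06 and 6.03 in WSP-2, 4.19 and 4.12 in WSR-1 and 3.66 and 4.36 in WSR-2, so that 1 WSP pool lay inside the WSR range. Its corrected difference was 0.89 in Air and 1.03 in EtOH, carried mainly by 1 replicate each time. In Air it was 0.08 in replicate 1 and 1.70 in replicate 2, and in EtOH 1.81 and 0.24.

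The markers of other cell types given here held 0 probes past the threshold, with differences from -0.44 to 0.44. The choroid plexus genes Ttr and Enpp2, above background on all 8 arrays, differed by -0.04 ± 0.23 and 0.15 ± 0.20. The blood genes Hba-a1 and Hbb differed by -0.14 ± 0.20 and 0.24 ± 0.30. Astrocyte markers ran from -0.32 ± 0.27 for Clu to 0.16 ± 0.26 for Glul, Syn1 differed by 0.44 ± 0.46, and the lymphocyte markers ran from -0.44 for Cd4 to 0.30 for the immunoglobulin G3 constant region. The part of tissue composition in the line differences was not tested beyond these values.

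**Figure D5:**
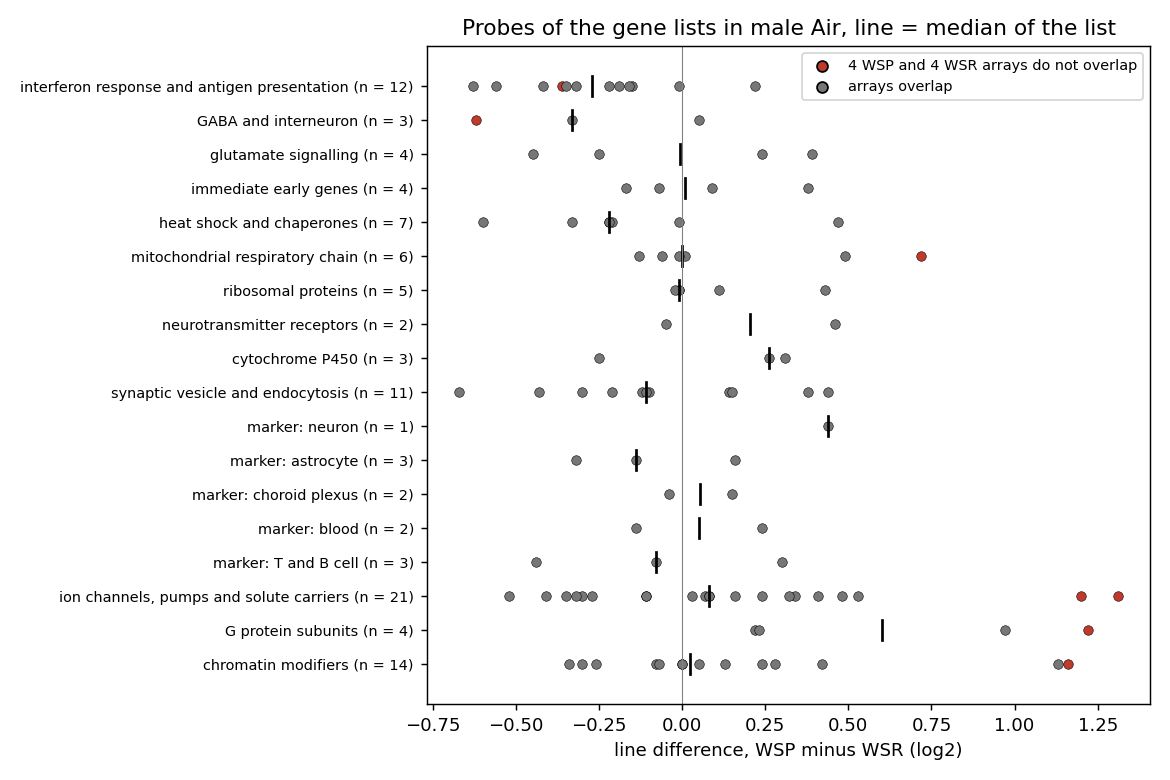
Line difference (WSP minus WSR, log2) in male Air of each tested probe in the gene lists and marker lists, with the median of a list as a black bar. Red points are probes whose 4 WSP and 4 WSR arrays do not overlap: Slc27a2, Atp2a1, Gnao1, Hdac6 and Ndufa2 on the higher side, and Sst and H2-Aa on the lower.

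Among probes with no gene title, 48 were higher and 60 lower on all WSP arrays. After unknown2a619, the smallest p on the lower side belonged to AI450946, unknown2d712 and unknown2e615 (limma adjusted p = 0.437 for each). No WSP array was above background for AI450946, which was at least 1.29-fold lower in WSP, while unknown2d712 and unknown2e615 differed by -1.18 and -1.11, and by -1.08 and -1.0 after the location correction. Probe unknown2d712 measured 4.99, 4.83, 4.57 and 4.43 in WSP and 5.85, 5.45, 6.17 and 6.10 in WSR, and unknown2e615 measured 3.82, 3.85, 3.51 and 3.84 in WSP and 4.58, 4.62, 5.08 and 5.18 in WSR. In male EtOH unknown2a619, unknown2d712 and unknown2e615 were again lower in WSP, by -0.58, -0.35 and -0.56, and AI450946 measured 0.91. On the higher side AI413908 differed by 1.00 and AI427988 by 1.23, and by 1.05 and 0.66 after the correction. No WSR array was above background for AI465155 and AI324135, which as measured were at least 2.17-fold and 1.05-fold higher in WSP. Their measured differences of 1.58 and 0.93 became 0.94 and 0.50 after the correction, and AI465155 then overlapped. In EtOH AI465155 measured 1.28 and the other 3 between -0.08 and 0.01.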

How the data were processed

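Deposited spot files gave 1 intensity per cDNA spot (Signal) and 1 background reading per array, per the file headers; the software that made the intensity values is not given in the sources used here. The deposited series matrix holds a score per spot, found here to be the log2 intensity of each array rescaled to mean 8 and SD 2, and empty at or below background. Background was corrected with limma 3.58.1 (R 4.3.3) normexp and an offset of 0.1 times the array's median, control spots were dropped, the 8 arrays were quantile normalised together and log2 was taken, and probes above the 25th percentile of mean signal were tested with 1 mean per line, empirical Bayes moderation and Benjamini-Hochberg adjustment at 0.05. The files hold 1 spot per probe and no local background. The number of arrays limits the precision, and p-values measure the spread between pools, with 2 selected lines per direction. Male EtOH and female Air arrays were normalised apart, as 8 arrays each. "At least" folds set the brighter line's mean against the dimmer line's mean of, per array, its own value or, if higher, the array's lowest signal above background. They use the measured values, so they are no bound on a location-corrected difference. The deposited intensity was fitted also on the log2 scale without background correction.

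The lists, the members and the comparisons were chosen with earlier results of these data known, and the location correction, the averaged fit and the G protein and chromatin groups were added after the data were seen. The rule for named genes was up to 12 per direction past the threshold; as none passed, each direction was filled to 12 by smallest p among gene-titled probes without overlap. Up to 4 members of each list by smallest p were added; further genes are named from the replicate 2 and averaged calls, chosen after their values were seen. Titles were given as current symbols where they leave no doubt, and 36 of 38 symbols looked up were in the RefSeq table (GRCm38.p6). The scripts were tested on simulated data. Same-numbered arrays of WSP and WSR did not all deviate together (r from 0.0164 to 0.215), so the numbers were not used as pairs. Some genes are counted in the totals and not reported here by name.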

Additional observations from a re-analysis of the deposited data

Results flagged for a closer look

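Over 56 groups of 4 arrays looked at, 3 held an array that stood apart by Dixon's test, where chance flags about 1 in 20. Zmynd10 measured 4.59 on WSR-2 pool 1, above the other WSR arrays. Psmd4 measured 3.88 on WSP-2 pool 2, below the other WSP arrays, and H2-Aa measured 2.36 on the same array.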

How the results depend on the processing

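For the male Air line difference, 17 of 19 other settings called 0 probes in limma, and no background correction and the restriction to 1160 probes above background on all arrays called 1 each; leaving out each array in turn gave 0 to 0. Probes at unadjusted p under 0.05 numbered from 60 (series matrix scores, 1160 probes) to 441 (without both WSP-1 arrays), against 148 without both WSP-2 arrays and 83 in a fit of the 31 arrays of the series that its labels do not mark as excluded. With the selection replicate as a replicate block the count past the threshold stayed 0 (248 at unadjusted p under 0.05), and with replicate and pool as a block 0 (294); array numbers did not pair the samples. With each selected line as a random block it was 0 (335, correlation -0.109). All 586 values of the 24 named genes under 27 settings kept their sign, and none passed the threshold. These genes were chosen for groups without overlap on the same arrays, so their signs could hardly change and are no separate support.

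Within selection replicate 2, no background correction called 36 probes and the location correction 106, against 0. That 106 became 0 with median scaling and 0 with cyclic loess, and ranged from 0 to 100 when 1 array was left out, 0 without WSP-2 pool 2 or WSR-2 pool 2. Where this left 1 array in a line, that array was assumed to vary like the other lines. In male EtOH, median scaling called 35, the location correction 29 and the replicate block 0, against 0. In female Air the location correction called 1. The averaged fit of 16 male arrays with location correction called 142 probes, and 0 without the correction. It called 79 with cyclic loess, 36 without selection replicate 1 and 0 without selection replicate 2. Leaving out 1 array gave from 3 to 240, and 4 of 16 such counts were within 1.5 times of 142. With selected lines as a random block it called 223, at an estimated correlation within lines of -0.044. With 2 selected lines per direction, that larger count does not measure the spread between lines. The cause was not tested. Signal over background limits what can be called: a large share of probes lay near the background reading.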
